A study of Drosophila melanogaster with 3 samples.

Results

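The vacuolar ATPase (V-ATPase) genes were taken as every entry of the deposited table that holds a single gene and whose gene name starts with *Vha*. There were 33 such genes among 15185 entries, of which 14900 hold a single gene, and no *Vha* gene was joined with another gene in 1 entry. Levels were measured by RNA-seq in whole male larvae of the 3rd instar, with 1 library for each of 3 genotypes. Wild type was the strain Canton S. The other libraries came from males hemizygous for *mxcG43*, a hypomorphic allele without tumours, and from males hemizygous for *mxcmbn1*, a recessive lethal allele with tumours of the lymph gland. The *mxcmbn1* stock also carried the *w1* allele of *white*, and the duplication that covers *mxc* in that stock had been removed. Since each genotype has 1 library, no difference given here was tested, no spread between replicates is known, and genotype, stock background and library cannot be told apart.

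The V-ATPase is a rotary pump that uses ATP to move protons across a membrane. It acidifies endosomes, lysosomes and secretory vesicles in every cell, and in insects it also energises the plasma membrane of transporting epithelia such as the Malpighian tubule. Its V1 part, in the cytoplasm, holds subunits A to H and hydrolyses ATP, and its V0 part, in the membrane, holds subunits a, c, c'', d and e and carries the protons. *Drosophila* encodes several of these subunits by more than 1 gene. For each subunit, 1 gene is known to be expressed at a high level in epithelia. These genes are called the epithelial set here, and there were 13 of them. The remaining 18 subunit genes are called alternative paralogs, and 2 genes, *VhaAC45* and *VhaM8.9*, encode accessory proteins. The sets were taken from what is known of the genes and not from the levels measured here, but with earlier results of these data known.

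Levels are given in FPKM, fragment numbers scaled to the length of the exons and to the mapped fragments of the library, so that levels can be compared between genes. The mutated gene *mxc* had an FPKM of 1.96 in wild type, 1.94 in *mxcG43* and 3.56 in *mxcmbn1*. The files hold no read counts. At low levels, however, the FPKM values of 1 gene stand in ratios of whole numbers of reads, and these gave a depth of 0.970 for *mxcG43* and 1.36 for *mxcmbn1* relative to wild type. The smallest whole numbers of reads that fit all values were found for 9 of the 33 genes, and 95% Clopper-Pearson intervals on ratios of these reads cover counting error only.

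In *mxcmbn1*, 12 of the 33 genes were at least 2-fold lower than in wild type and 1 was at least 2-fold higher. Over the 11418 single-gene entries with a mean FPKM of at least 1, a condition that all 33 genes met, 25.2% were at least 2-fold lower and 14.9% at least 2-fold higher. All 12 lower genes were alternative paralogs, and none belonged to the epithelial set. For 11 of them the FPKM in *mxcmbn1* was at most 0.956, so they met the condition on mean FPKM through the other libraries. Without that condition the count of lower *Vha* genes was also 12. In *mxcG43*, 2 genes were at least 2-fold lower than in wild type and 0 were higher, against 6.23% and 5.95% of all entries. When *mxcmbn1* was set against *mxcG43*, 12 genes were lower and 0 higher, against 25.2% and 14.2%. The comparisons share libraries and are not independent. The median log2 ratio of FPKM + 0.1 over the 33 genes was -0.40 for *mxcmbn1* to wild type and -0.09 for *mxcG43* to wild type, and over all entries it was -0.05 in both comparisons.

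**Figure D1:**
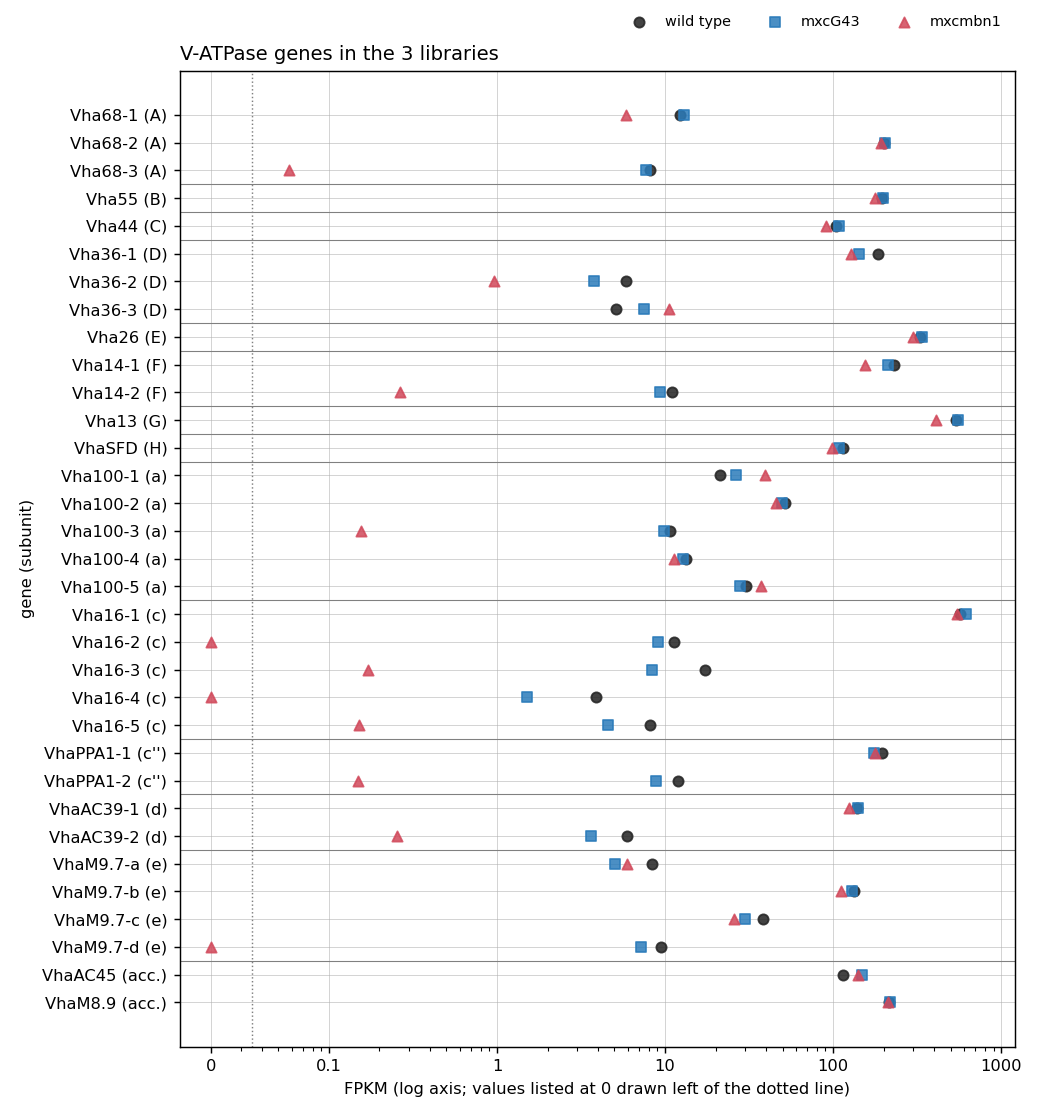
FPKM (log axis) of each of the 33 V-ATPase genes in wild type (circles), *mxcG43* (squares) and *mxcmbn1* (triangles), 1 library per symbol, with the subunit in parentheses and values listed at 0 left of the dotted line. Genes of the epithelial set lie together above 45 FPKM in the 3 libraries, while 11 alternative paralogs lie far to the left in *mxcmbn1* only.

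The epithelial set was expressed at a high level, and none of its genes differed by 2-fold in any comparison. In wild type its FPKM ran from 51.5 for *Vha100-2* to 565 for *Vha16-1*. *Vha16-1* was at percentile 98.4 of all single-gene entries and *Vha100-2* at percentile 89.2. In *mxcG43* the levels lay between 0.772 and 1.09 times wild type, with a median of 1.01. There 7 of the 13 genes were higher, against 5177 of the 11418 entries with a mean FPKM of at least 1. In *mxcmbn1* all 13 were lower than in wild type, at 0.674 to 0.972 times with a median of 0.891. Over all entries with a mean FPKM of at least 1 the median was 0.955, and 51.9% were below wild type. The Malpighian tubule marker list, of which 7 of 8 genes were found, had a summed FPKM of 194 in wild type, 87.1 in *mxcG43* and 149 in *mxcmbn1*. *Uro* carried most of this sum in wild type and *mxcmbn1*, and the other 6 genes summed to 59.3, 62.9 and 33.8. In *mxcmbn1*, 2 of these 7 genes were at least 2-fold lower than in wild type and 0 were higher, against 25.2% and 14.9% of all entries. The summed FPKM of 8 midgut genes was 7014, 9401 and 5471 in the same order. Without the lysozyme genes *LysB* and *LysD* it was 2596, 2680.2 and 2357, and in *mxcG43* 4 of the 8 genes were below wild type, with a median ratio of 0.904. In *mxcmbn1*, 5 of the 8 midgut genes and 6 of the 7 tubule genes were below wild type, with median ratios of 0.699 and 0.620. The share over all entries is the 51.9% given above. In *mxcG43*, 2 of the 7 tubule genes were at least 2-fold lower and 0 higher, against 6.23% and 5.95% of all entries. No gene of either list was at 0, and their part in the differences of the epithelial set was not tested.

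The alternative paralogs differed widely among themselves. In wild type their FPKM ran from 3.90 to 38.3, below every gene of the epithelial set. In *mxcmbn1*, 11 of the 18 were at 16.4% of the wild-type level or less, the next was at 47.7%, and the others ran up to 206%. The 11 genes were set apart by these *mxcmbn1* values, so that their levels are a description. They were *Vha68-3*, *Vha36-2*, *Vha14-2*, *Vha100-3*, *Vha16-2*, *Vha16-3*, *Vha16-4*, *Vha16-5*, *VhaPPA1-2*, *VhaAC39-2* and *VhaM9.7-d*. Their summed FPKM was 104 in wild type, 73.8 in *mxcG43* and 2.16 in *mxcmbn1*, while that of the other 7 alternative paralogs was 129, 122 and 136. Of the 13 subunits, 8 have more than 1 gene, and each of these 8 had at least 1 of the 11 genes. The 5 subunits with a single gene, B, C, E, G and H, had no such gene.

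**Figure D2:**
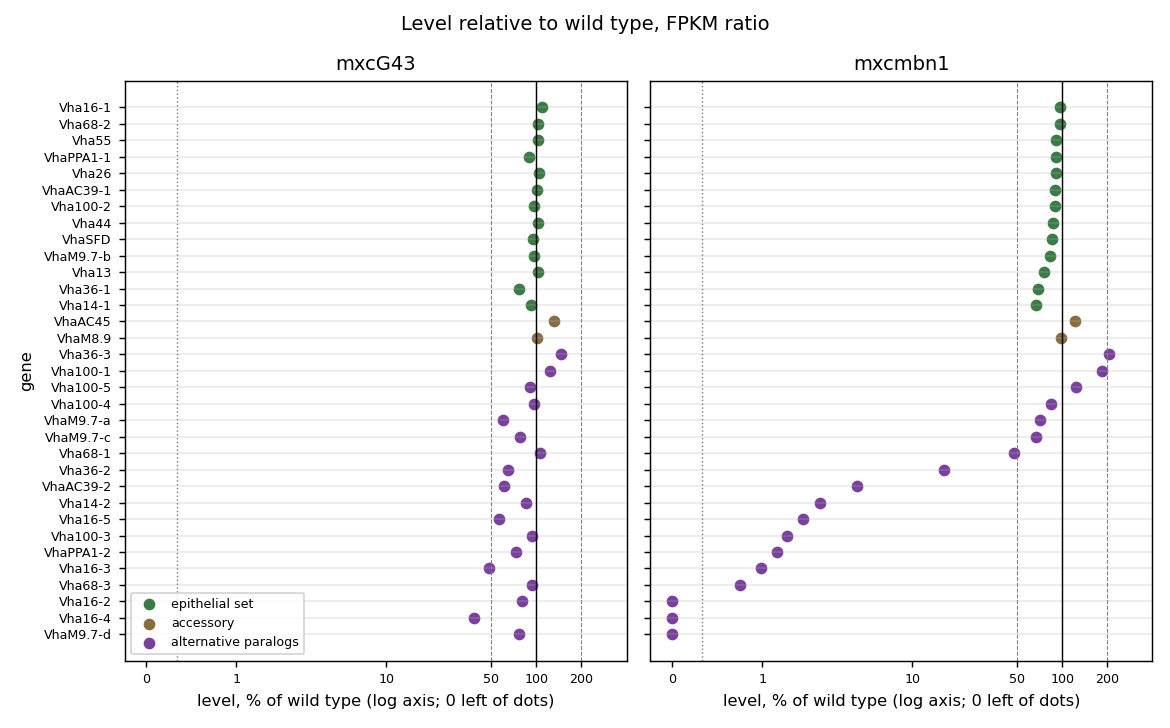
Level in *mxcG43* (left) and *mxcmbn1* (right) as % of the wild-type FPKM (log axis, values of 0 left of the dotted line), with 1 point per gene coloured by set, a solid line at 100% and dashed lines at 50% and 200%. In *mxcmbn1* the epithelial set lies between 67.4% and 97.2%, and 11 alternative paralogs lie at or below 16.4%.

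Subunit A binds and hydrolyses ATP, and 3 genes encode it. *Vha68-2*, the gene of the epithelial set, had an FPKM of 199.6 in wild type, 204 in *mxcG43* and 193 in *mxcmbn1*. *Vha68-1* had 12.3, 12.9 and 5.85, and *Vha68-3* had 8.14, 7.67 and 0.0580. The last value of *Vha68-3* is 0.713% of wild type and rested on 2 recovered reads against 207 in wild type (95% interval 0.0857% to 2.61%). Hence of the 3 genes *Vha68-2* was alike in the 3 libraries, *Vha68-1* was lower in *mxcmbn1* at 0.477 times wild type, and *Vha68-3* was under 1% of wild type there. In *mxcG43*, *Vha68-3* was at 94.2% of wild type with 189 reads (95% interval 76.9% to 115%), a difference not detectable at this depth. The 3 genes lie on chromosome arm 2L (BDGP5), with *Vha68-2* from 12974322 to 12978615, *Vha68-3* from 12978786 to 12981301 and *Vha68-1* from 13000765 to 13004142. Only 170 bases separate *Vha68-2* from *Vha68-3*, which follow each other on the same strand. Subunit B, which shares the head of the pump with subunit A, has the single gene *Vha55*. Its FPKM was 195 in wild type, 199.1 in *mxcG43* and 178 in *mxcmbn1*, close to the level of *Vha68-2* in each library.

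Subunits D and F form the central shaft that turns inside the head. *Vha36-1*, the D gene of the epithelial set, had an FPKM of 185 in wild type, 143 in *mxcG43* and 127 in *mxcmbn1*. It was the gene of this set with the lowest ratio in *mxcG43*, 0.772 times wild type. *Vha36-2* had 5.83, 3.76 and 0.956, which rested on 72, 45 and 16 recovered reads. This gene, on 2R from 8144787 to 8146157, was the highest of the 11 in *mxcmbn1*, at 16.4% of wild type (95% interval 8.899% to 28.5%), and in *mxcG43* it was at 64.5% (95% interval 43.4% to 94.8%). *Vha36-3*, on the X chromosome from 2473277 to 2474330, moved the other way. Its FPKM was 5.12 in wild type, 7.45 in *mxcG43* and 10.6 in *mxcmbn1*, 2.06 times wild type, and it was the only *Vha* gene at least 2-fold higher. From the length of its transcripts, the wild-type level of *Vha36-3* would rest on 54.1 to 63.1 reads. In wild type *Vha36-2* and *Vha36-3* were at nearly equal levels, and in *mxcmbn1* the level of *Vha36-3* was the higher of the pair.

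For subunit F, *Vha14-1* of the epithelial set had an FPKM of 230.3 in wild type, 212 in *mxcG43* and 155 in *mxcmbn1*. Its ratio in *mxcmbn1*, 0.674 times wild type, was the lowest of the epithelial set. *Vha14-2* had 10.9, 9.30 and 0.266, and was thus at 85.01% of wild type in *mxcG43* and 2.43% in *mxcmbn1*. No whole reads were recovered for *Vha14-2*, which has 3 annotated transcripts, and from their lengths its *mxcmbn1* level would rest on 1.59 to 5.58 reads. It lies on 3R from 1948314 to 1950127.

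Subunits E and G build the outer stalks that hold the head still, and subunits C and H tie V1 to V0 and take part in the control of their assembly. Each has a single gene. *Vha26*, for E, had an FPKM of 328 in wild type, 340 in *mxcG43* and 298 in *mxcmbn1*. *Vha13*, for G, had 537, 555 and 408, and was at 0.759 times wild type in *mxcmbn1*. These were the highest of all V1 genes in the 3 libraries. *Vha44*, for C, had 105, 108 and 91.1, and *VhaSFD*, for H, had 115, 109 and 98.0. The entries of *Vha44* and *VhaSFD* are among 8 *Vha* entries that share their locus with another entry. Levels at such loci can depend on how reads were divided. For *VhaSFD* the other entry, *mir-1006*, was at 0 in the 3 libraries. The libraries kept the strand, but the authors aligned and quantified the reads at default parameters, which take them as unstranded, so that reads of overlapping genes on opposite strands were not told apart by strand.

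Subunit a is the fixed part of V0 through which protons enter and leave the ring, and it also directs the pump to particular membranes. It is encoded by 5 genes, and here the epithelial gene did not make up most of the subunit. *Vha100-2* had an FPKM of 51.5 in wild type, 49.8 in *mxcG43* and 45.8 in *mxcmbn1*, which were 40.4%, 39.3% and 34.2% of the sum over the 5 genes. *Vha100-1*, known for its role at synapses in neurons, had 21.4, 26.3 and 39.2. It was thus 1.23 times wild type in *mxcG43* and 1.83 times in *mxcmbn1*, and its share of the subunit was 16.8%, 20.8% and 29.3%. The locus of *Vha100-1* is shared with the entry of *CG14512*, at 0.876 times wild type in *mxcmbn1*. *Vha100-5* had 30.4, 27.8 and 37.4, or 1.23 times wild type in *mxcmbn1*. *Vha100-4*, which is known from the acid-secreting region of the midgut, was nearly level at 13.3, 12.9 and 11.2. Its locus is shared with the entry of *cona*, which was at 0.201 times wild type in *mxcmbn1*. *Vha100-3* stood apart, with 10.6, 9.92 and 0.156. It rested on 302 reads in wild type, 273 in *mxcG43* and 6 in *mxcmbn1*, where it was at 1.47% of wild type (95% interval 0.534% to 3.23%). In *mxcG43* it was at 93.2% (95% interval 78.9% to 110.2%), which was not detectable as a difference at this depth. The locus of *Vha100-3*, on 2R from 14765899 to 14847000, is shared with the entry of *sano*, which was at 2.15 times wild type in *mxcmbn1*. The summed FPKM of the 5 genes was 127 in wild type and 134 in *mxcmbn1*, and a was the only subunit whose sum was higher in *mxcmbn1*.

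**Figure D3:**
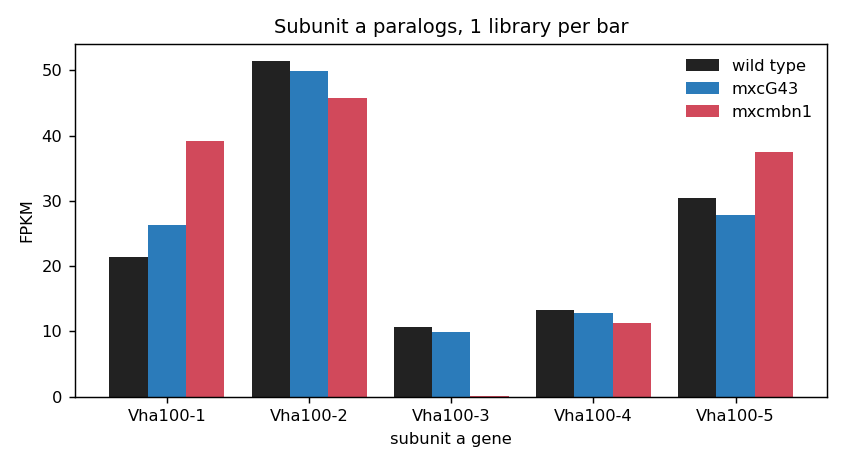
FPKM of the 5 genes of subunit a in wild type, *mxcG43* and *mxcmbn1*, with 1 library per bar and no error bars. *Vha100-1* stands at 21.4, 26.3 and 39.2, whereas *Vha100-3* stands at 10.6, 9.92 and 0.156.

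The genes *Vha100-4* and *Vha100-2* are neighbours on 3R, from 14211550 to 14215525 and from 14216045 to 14230448, with 519 bases between their loci. Neither differed by 2-fold in any comparison. The haemocyte marker list stands beside the higher levels of *Vha100-1* and *Vha36-3*. Its summed FPKM was 310 in wild type, 243 in *mxcG43* and 1659 in *mxcmbn1*, with 9 of 11 genes at least 2-fold higher in *mxcmbn1* than in wild type, 1 lower and none at 0, against 14.9% higher and 25.2% lower among all entries. In *mxcG43*, 9 of the 11 haemocyte genes were below wild type by any amount, with a median ratio of 0.740. Among the 11418 entries with a mean FPKM of at least 1, 6172 were below wild type there. *Vha100-1* and *Vha36-3* were at 1.23 and 1.46 times wild type in *mxcG43*. The part of haemocytes in the levels of these *Vha* genes was not tested.

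Subunits c and c'' are small membrane proteins that form the proton-carrying ring. *Vha16-1* was the most abundant *Vha* transcript in each library, with an FPKM of 565 in wild type, 618 in *mxcG43* and 549 in *mxcmbn1*. The other 4 c genes were all among the 11 genes. *Vha16-2* had 11.3 and 9.10 and was listed at 0 in *mxcmbn1*. It rested on 50, 39 and 0 reads. Against a floor of 3 reads in *mxcmbn1*, *Vha16-2* was 22.6-fold lower there than in wild type (95% interval 0% to 5.65% of wild type). *Vha16-3* had 17.3, 8.34 and 0.170, or 48.3% and 0.987% of wild type. Its *mxcmbn1* level would rest on 1.01 to 1.13 reads from the lengths of its transcripts, and no whole reads were recovered. *Vha16-4*, the lowest *Vha* gene in wild type, had 3.90, 1.51 and 0. The smallest numbers of reads behind these values were 8, 3 and 0, whereas the length of its transcript gives 16.1 reads in wild type, so that the true numbers may be a common multiple. Against the floor of 3 reads *Vha16-4*, on 2R from 12835163 to 12835729, was 3.62-fold lower in *mxcmbn1*. On the smallest numbers of reads, its 95% interval there ran from 0% to 43.2% of wild type. *Vha16-5* had 8.12, 4.56 and 0.152 on 79, 43 and 2 reads. It was at 56.1% of wild type in *mxcG43* (95% interval 37.8% to 82.4%) and at 1.87% in *mxcmbn1* (95% interval 0.222% to 6.97%). These 4 genes together gave 6.70% of the FPKM of subunit c in wild type, 3.67% in *mxcG43* and 0.0586% in *mxcmbn1*.

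*Vha16-3* and *Vha16-4* were the 2 genes that were at least 2-fold lower in *mxcG43* than in wild type, at 0.483 and 0.387 times. For *Vha16-4*, the 95% interval on the smallest numbers of reads, 8 in wild type and 3 in *mxcG43*, ran from 6.61% to 161% of wild type and includes no difference. It would be narrower if the true numbers are a multiple of these. *Vha16-3* and *Vha16-2* lie next to each other on 3L, from 11466391 to 11467072 and from 11468058 to 11468652, with 985 bases between them. *Vha16-5*, on 2L from 10736319 to 10740762, shares its locus with the entry of *CG12299*. The level of that entry was 2.86 times wild type in *mxcmbn1*, opposite to *Vha16-5*, and the transcript length gives 48.0 reads for *Vha16-5* in wild type instead of 79.

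For subunit c'', *VhaPPA1-1* had an FPKM of 195 in wild type, 175 in *mxcG43* and 178 in *mxcmbn1*. *VhaPPA1-2* had 11.998, 8.81 and 0.150 on 59, 42 and 1 reads, which left it at 1.25% of wild type in *mxcmbn1* (95% interval 0.0311% to 7.24%). This is a pair on 3R, with *VhaPPA1-2* from 10725361 to 10725999 and *VhaPPA1-1* from 10728048 to 10729796, 2048 bases apart and with the entry of *RpS5b* between them. As with *Vha68-2* and *Vha68-3*, neighbouring genes of 1 subunit thus stood at very different fractions of wild type in *mxcmbn1*.

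Subunit d joins the central shaft to the ring, and subunit e is a small membrane protein of V0. *VhaAC39-1*, on the X chromosome, had an FPKM of 139 in wild type, 140.4 in *mxcG43* and 124 in *mxcmbn1*. *VhaAC39-2* had 5.93, 3.63 and 0.254 on 69, 41 and 4 reads. This gene, on 3R from 18983739 to 18985038, was at 61.3% of wild type in *mxcG43* (95% interval 40.6% to 91.5%) and at 4.28% in *mxcmbn1* (95% interval 1.13% to 11.5%). Among the 4 genes of subunit e, *VhaM9.7-b* of the epithelial set had 134, 129 and 112. *VhaM9.7-c* had 38.3, 30.03 and 25.7, and *VhaM9.7-a* had 8.39, 5.05 and 5.96. The locus of *VhaM9.7-c* is shared with the joined entry of *CG18675* and *tipE*, which was at 0.0930 times wild type in *mxcmbn1*. It is also shared with the entry of *Teh4* and the joined entry of *Teh2* and *Teh3*, at 1.26 and 1.08 times. *VhaM9.7-a*, *VhaM9.7-b* and *VhaM9.7-c* were lower in both mutants, but by less than 2-fold. *VhaM9.7-d*, in contrast, had 9.46 and 7.24 and was listed at 0 in *mxcmbn1*. With 31, 23 and 0 reads, this gene on 3R, from 12800926 to 12801419, was 14.01-fold lower there against the floor of 3 reads (95% interval 0% to 9.32% of wild type). Its level in *mxcG43* was 76.5% of wild type (95% interval 42.6% to 136%).

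**Figure D4:**
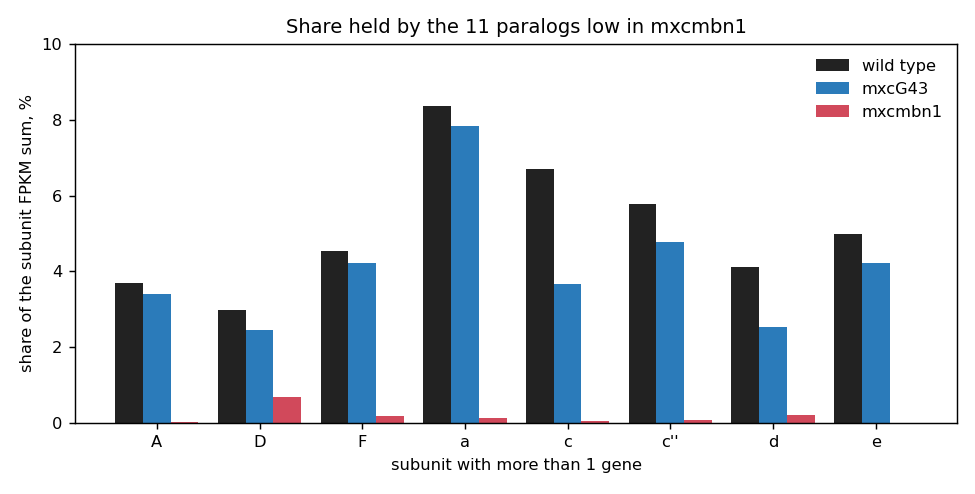
Share (%) of the summed FPKM of each subunit that came from the 11 paralogs low in *mxcmbn1*, for the 8 subunits with more than 1 gene and 1 library per bar. The shares lie between 2.98% (D) and 8.36% (a) in wild type, between 2.44% and 7.83% in *mxcG43* and at or below 0.689% in *mxcmbn1*.

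The accessory proteins assist the assembly and transport of V0, and *VhaM8.9* encodes the fly (pro)renin receptor. *VhaAC45* had an FPKM of 114 in wild type, 149 in *mxcG43* and 139.8 in *mxcmbn1*. It was therefore higher in both mutants, at 1.31 and 1.23 times wild type. *VhaM8.9* was nearly level, with 215, 218 and 211.

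Because FPKM is corrected for length, the subunits could also be set beside each other. The sum over all genes of a subunit in wild type was highest for c (606), G (537) and E (328), followed by F (241), A (220.0), c'' (207), D (196), B (195) and e (190.1). It was lowest for d (145), a (127), H (115) and C (105). Subunits c, E and G are present in several copies in each pump, as are A and B, so this order is only in part the order of the copies. In *mxcmbn1* the sums of 12 subunits were lower than in wild type, from 0.645 times for F to 0.917 times for B. In *mxcG43* they were between 0.786 times, for D, and 1.06 times, for c. The 11 paralogs therefore added little to the sums, and between 2.98% and 8.36% of a subunit in wild type.

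In wild type the 11 genes were themselves alike in level, with a median FPKM of 9.46 and a range from 3.90 to 17.3. In *mxcG43* all 11 were lower than in wild type, at 38.7% to 94.2% with a median of 73.4%. Of the 11418 entries with a mean FPKM of at least 1, 6172 were below wild type in *mxcG43*. The 11 genes were chosen by ratios to the same wild-type library, so this choice can also lower their *mxcG43* ratios. Counting intervals could be given for 9 of the 11 genes. Those of *Vha36-2*, *Vha16-5* and *VhaAC39-2* lay below 100%, whereas the other 6 included it. In *mxcmbn1*, by which they were chosen, their median was 1.25% of wild type. Of all 15 *Vha* genes with a wild-type FPKM between 3 and 20, 10 were at or under 5% of wild type in *mxcmbn1* and 0 in *mxcG43*. Among the 5965 single-gene entries in that range of wild-type FPKM the shares were 15.2% and 0.536%. The range and the limit of 5% were chosen after the values were seen, and the range rests on wild type, where the 11 genes were high. These counts are therefore a description only. The 11 genes lay on 4 chromosome arms, with 2 on 2L, 3 on 2R, 2 on 3L and 4 on 3R, and 0 on the X chromosome, which holds 2 *Vha* genes.

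Several alternative *Vha* paralogs are known as transcripts of the testis, and a list of testis genes, most of them expressed in spermatocytes and spermatids, was therefore set beside the 11 genes. Of 30 listed genes, 29 were found, and 28 of these were at least 2-fold lower in *mxcmbn1* than in wild type, against 25.2% of all entries. Their summed FPKM was 2396 in wild type, 1884 in *mxcG43* and 42.7 in *mxcmbn1*, and none was at 0 in any library. Their median level was 1.08% of wild type in *mxcmbn1* (quartiles 0.840% and 1.92%) and 81.6% in *mxcG43* (quartiles 74.3% and 91.7%). The 11 *Vha* genes had quartiles of 0.356% and 2.15% in *mxcmbn1* and of 58.7% and 82.7% in *mxcG43*. For *mxcmbn1* this likeness follows from the choice of the 11 genes by their *mxcmbn1* levels and supports nothing. The *mxcG43* percentages share the wild-type library with that choice and are not independent of it. The 18 alternative paralogs as a whole had quartiles of 1.05% and 70.0% in *mxcmbn1*. Of 4 genes of earlier male germline cells, *vas*, *bam* and *bgcn* were at 0.125, 0.224 and 0.0988 times wild type in *mxcmbn1*, and *nos* was at 5.31 times. The part of the testis in the *Vha* levels was not tested, and in whole larvae fewer cells of a type and less RNA per cell cannot be told apart.

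**Figure D5:**
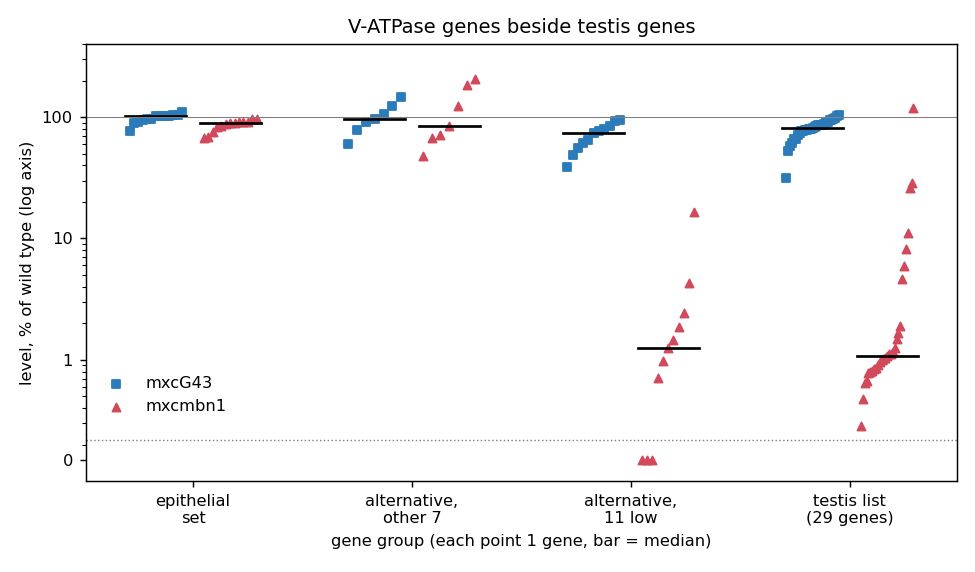
Level in *mxcG43* (squares) and *mxcmbn1* (triangles) as % of wild type (log axis, values of 0 below the dotted line) for the epithelial set, the 7 other alternative paralogs, the 11 alternative paralogs low in *mxcmbn1* and 29 testis genes, with 1 point per gene and bars at the medians. In *mxcmbn1* the medians are 1.25% for the 11 paralogs, which were chosen by these values, and 1.08% for the testis genes.

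A set of proteins that regulate the V-ATPase or work with it in lysosomes and epithelia did not show the same pattern. Of 22 listed genes, 20 were found. In *mxcmbn1*, 0 of them were at least 2-fold lower than in wild type and 3 were higher, against the 25.2% and 14.9% of all entries given above, and in *mxcG43* neither kind was found. *Mitf*, a transcription factor known to drive V-ATPase and lysosomal genes, had an FPKM of 32.9 in wild type, 32.9 in *mxcG43* and 29.3 in *mxcmbn1*. *Rbcn-3A* and *Rbcn-3B* encode the rabconnectin proteins, on which assembly of the pump depends. *Rbcn-3A* had 3.39, 4.07 and 3.39, and *Rbcn-3B* had 4.79, 5.96 and 7.70. The 3 genes that were higher by at least 2-fold were *Npc2a*, which encodes a sterol-binding protein of the lysosome, *Nha2*, an exchanger of alkali metal ions for protons, and *spin*, a transporter of the lysosomal membrane. *Npc2a* had an FPKM of 134 in wild type, 203 in *mxcG43* and 375 in *mxcmbn1*. *Nha2* had 4.68, 6.30 and 12.97, and *spin* had 16.7, 16.5 and 33.6. The chloride channel gene *ClC-a* was at 0.620 times wild type in *mxcmbn1*.

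The proteasome, another complex of many subunits with paralogs expressed in the testis, was counted in the same way. Of 24 genes with names of proteasome subunits, 9 were at least 2-fold lower in *mxcmbn1* than in wild type and 0 higher, 7 were at or under 5%, and the median ratio was 0.618. Over all entries with a mean FPKM of at least 1, 25.2% were lower, 14.9% higher and 13.2% at or under 5%, with a median of 0.955. All 24 proteasome genes and 29 of the 33 *Vha* genes were below wild type by any amount, against 51.9% of all entries. Of the 5 genes whose names start with *ATPsyn*, which encode subunits of the mitochondrial ATP synthase, 0 differed by 2-fold in *mxcmbn1*, and their ratios ran from 0.606 to 1.16. Whether the *Vha* genes differ from these complexes was not tested.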

How the data were processed

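RNA of whole male larvae was sequenced in reads of 51 bases from 1 end, in 1 library for each genotype. After a check with FastQC 0.11.5 and a filter, the authors mapped the reads with TopHat 2.0.6 onto the BDGP5 genome, and Cufflinks gave the deposited FPKM values. The gene annotation is not given in the sources used here. Loci start from 0 in the file and from 1 here.

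Plain ratios of FPKM were called at 2-fold among the single-gene entries with a mean FPKM of at least 1. No p-value can be given with 1 library per genotype. Whole reads were searched up to 60 in the lowest library above 0 and up to 1000 in the others, within a relative tolerance of 1e-05. Levels at 0 were set to a floor of 3 reads for a fold, which leaves out counting error in wild type. Reads were also estimated from transcript lengths in BDGP6 less a fragment length of 200 bases, with 11264134 mapped reads in wild type, the median over 644 genes with 1 transcript. These lengths can differ from those the authors used. The depths, calls and read recovery were run on simulated data. The test of recovery covered only genes with reads in all 3 libraries and held no shared loci.

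All *Vha* genes are named. Members, sets and marker lists were chosen with earlier results of these data known. Of the partner list, *Mitf*, *Rbcn-3A*, *Rbcn-3B* and the 5 genes with the largest log2 ratio of FPKM + 0.1 in *mxcmbn1* were to be named. *Rbcn-3B* is one of these 5. The group of 11 genes, the limits of 20% and 5% of wild type and the range of wild-type FPKM from 3 to 20 were chosen after the values were seen, and *Prosap* was left out of the proteasome names. Alternatives covered the fold, pseudocounts, the minimum FPKM, scaling, the floor and shared loci. The analysis ran in Python 3.11.15 with scipy 1.17.1, pandas 2.3.3 and numpy 2.4.6, and figures were drawn with matplotlib 3.10.9.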

Additional observations from a re-analysis of the deposited data

How the results depend on the processing

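The counts of *Vha* genes at least 2-fold lower in *mxcmbn1*, 12 against wild type and 12 against *mxcG43*, stayed within 1.5 times under the alternatives run, as did the counts of 0 genes higher in *mxcG43* than in wild type and in *mxcmbn1* than in *mxcG43*. These alternatives were folds of 1.5 and 3, pseudocounts of 0.1 and 1, no minimum FPKM or a minimum of 5, rescaling to an equal upper quartile or to a median ratio of 1, levels of 3 reads or fewer set to 3 reads, and entries with shared loci left out. The lowest value of both counts of 12 was 8, with the minimum of 5. The count of 1 gene higher in *mxcmbn1* than in wild type, *Vha36-3*, became 2 at a fold of 1.5, 0 at a fold of 3 and 0 with a pseudocount of 1. The count of 2 genes lower in *mxcG43* than in wild type became 6 at a fold of 1.5, 0 at a fold of 3, 0 with a pseudocount of 1, 1 with a minimum of 5 and 1 after rescaling by the upper quartile. The median log2 ratio over the 33 genes kept its sign in all 3 comparisons under the pseudocounts and scalings run, and rescaling by the upper quartile shifted log2 ratios to wild type by 0.06 for *mxcG43* and 0.07 for *mxcmbn1*. No paired analysis was possible because each genotype has 1 library. Levels of a few reads in *mxcmbn1* set no order among the 11 low paralogs.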
